A study of Mus musculus with 38 samples.

Results

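The genes of the epidermal differentiation complex were taken as the protein-coding gene models on mouse chromosome 3 (GENCODE vM1 on NCBIM37, the mm9 build) whose symbols begin with Lce, Sprr, Flg, Tchh or S100a, or are Lor, Ivl, Rptn, Hrnr, Crnn or Crct1. The rule found 61 gene models with 57 symbols, among the 22380 protein-coding models of the annotation, since 5 models carry the name Flg. They run from the start of S100a1 to the end of S100a10, chr3:90314956-93368565, a cluster of 3.05 Mb that holds 74 protein-coding models in all. By family there were 13 S100A models, 16 SPRR models, 18 LCE models, 11 models of the fused S100 type (Flg, Flg2, Tchh, Tchhl1, Rptn, Hrnr and Crnn), and Lor, Ivl and Crct1.

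The epidermal differentiation complex encodes much of the barrier that the outer skin builds. As keratinocytes rise through the epidermis they make loricrin (Lor) and involucrin (Ivl), which are cross-linked with small proline-rich (SPRR) and late cornified envelope (LCE) proteins into the cornified envelope, while filaggrin (Flg) bundles keratin filaments. The S100A proteins bind calcium, and S100a8 and S100a9 are best known as a pair made by neutrophils and by stressed epidermis. SATB1 is a nuclear protein that binds base-unpairing regions (BURs), AT-rich stretches whose DNA unwinds readily under strain. A BUR typically holds a cluster of short segments in which one strand lacks G or C. CTCF is the factor that anchors many chromatin loops.

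All 11 peak lists counted over these genes came from C57BL/6 mice, and every cell sample carried wild-type Satb1. They hold the BUR reference map (1 list, thymus DNA bound by SATB1 protein in vitro), SATB1 peaks by urea ChIP-seq from thymocytes, from skin and from brain (2 replicates each), SATB1 peaks by standard ChIP-seq from thymocytes (2 replicates), and CTCF peaks by urea ChIP-seq, with 1 list from thymocytes and 1 from skin. In urea ChIP-seq the crosslinked chromatin is first freed of indirectly bound protein by centrifugation through urea, whereas the standard assay takes the soluble chromatin of sonicated nuclei. The skin cells were primary epidermal keratinocytes and the brain cells came from cortex, according to the protocols. The labels disagree on age: thymocytes are given as postnatal day 13 with 6 weeks in the titles of the first standard list and of the CTCF list, skin as day 13 in one field and day 5 in another, and brain as 5 and 6 weeks in one field and day 13 in another. The paper's methods instead give newborn mice for skin, younger than either field, and mice of 6 to 10 weeks for brain. Antibody 1583D against SATB1 was used in every urea SATB1 list and in the second standard list, and ab109122 in the first standard list. The paired lists also differed in handling, with 4 and 2 µl of antibody in thymocytes, titles of 55 and 60 s in skin and 10 and 12 cycles in brain. Titles of the 2 standard lists gave 15 and 150 s. The study's reporting checklist describes its replicates as cells from different animals, whereas the labels name no animal and set the paired lists apart by these handling details. Within each urea SATB1 pair the titles carry the same TKS number, while the titles of the 2 standard lists carry different ones. The labels do not say what that number stands for, so the urea pairs may share a preparation. The p-values measure the spread between these lists, handling included. Lists from mice without SATB1, transcript levels and read depths were not used here, and which members the skin cells expressed was not measured.

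The lists differed widely in size. Thymocyte urea SATB1 lists held 45049 and 38882 peaks, skin lists 11210 and 10846, and brain lists 117963 and 109154, while the standard lists held 48175 and 27147, the CTCF lists 20323 (thymocytes) and 31509 (skin), and the BUR map 238380. Counts are therefore given beside the share of all protein-coding genes, and densities relative to the same list over chromosomes 1-19, X and Y.

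The following windows of 300 bases on the forward strand of NCBIM37 carry the contrasts of the cluster: the 4 sites of the cluster with the highest urea SATB1 fold enrichment in skin, each centred on the median peak summit, and the BUR with the strongest binding in vitro among those between Lor and Tchhl1 that held no urea SATB1 peak in any list. Capitals mark the longest run without G or without C on the strand shown, a context that BURs typically hold as a cluster of shorter segments.
Lce1d site, chr3:92491506-92491805: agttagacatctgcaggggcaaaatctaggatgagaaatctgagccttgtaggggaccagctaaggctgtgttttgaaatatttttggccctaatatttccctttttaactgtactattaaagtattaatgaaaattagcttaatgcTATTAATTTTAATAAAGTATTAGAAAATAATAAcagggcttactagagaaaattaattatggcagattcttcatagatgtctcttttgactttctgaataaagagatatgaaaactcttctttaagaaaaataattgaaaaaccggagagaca
Sprr1a-Sprr4 site, chr3:92297319-92297618: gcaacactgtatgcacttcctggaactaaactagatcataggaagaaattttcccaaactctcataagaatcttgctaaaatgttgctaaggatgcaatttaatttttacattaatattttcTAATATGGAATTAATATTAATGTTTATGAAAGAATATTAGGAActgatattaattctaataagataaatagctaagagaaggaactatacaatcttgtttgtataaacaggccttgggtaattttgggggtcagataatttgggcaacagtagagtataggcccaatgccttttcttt
Sprr2e site, chr3:92158340-92158639: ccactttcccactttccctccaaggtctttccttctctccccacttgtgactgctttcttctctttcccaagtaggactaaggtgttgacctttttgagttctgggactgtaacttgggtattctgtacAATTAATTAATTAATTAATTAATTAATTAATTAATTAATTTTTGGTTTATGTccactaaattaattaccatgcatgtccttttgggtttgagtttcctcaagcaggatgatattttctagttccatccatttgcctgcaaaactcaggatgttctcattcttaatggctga
S100a6 site, chr3:90428818-90429117: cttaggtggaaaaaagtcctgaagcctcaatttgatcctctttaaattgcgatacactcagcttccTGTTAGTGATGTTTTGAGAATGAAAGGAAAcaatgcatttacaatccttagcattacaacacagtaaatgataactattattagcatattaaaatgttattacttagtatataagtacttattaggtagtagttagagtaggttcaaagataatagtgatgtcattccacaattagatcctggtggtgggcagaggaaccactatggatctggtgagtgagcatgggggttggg
Unbound BUR near Sprr1b, chr3:92247948-92248247: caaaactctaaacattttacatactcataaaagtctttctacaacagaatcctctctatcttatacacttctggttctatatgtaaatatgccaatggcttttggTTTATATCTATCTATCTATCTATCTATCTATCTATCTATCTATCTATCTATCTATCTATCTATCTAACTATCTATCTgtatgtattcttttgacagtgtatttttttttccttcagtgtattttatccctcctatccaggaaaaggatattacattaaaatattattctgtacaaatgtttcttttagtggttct
The capitals span 33, 43, 52, 30 and 77 bases in that order, and the first 4 runs lack C while the last lacks G. Over the same 300-base windows of all 313 BURs of the cluster, the median longest run was 40 bases with quartiles of 32 and 54. The strongest site, at Lce1d, was thus below the median in this measure, and 229 of the 313 windows held a run at least as long. By the share of the window in runs of at least 20 bases, Lce1d was above the median, at 47.7% against 40%. The other 4 windows had 30.7%, 39.3%, 18.7% and 59% in the order shown. The Sprr2e run begins with a repeat of AATT, and most of the run in the unbound BUR is a repeat of ATCT. AT content of the 5 windows was 69.3%, 69.3%, 63.7%, 63.7% and 72%, against a median of 71.7% over the BUR windows.

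The question put to the BUR map was how much SATB1 substrate the cluster offers. It listed 313 BURs there, 103 per Mb against 90.8 per Mb genome-wide, a relative density of 1.13. Against the rest of chromosome 3, which is richer in BURs, the relative density was 0.899, so the direction depends on the reference. BURs were unevenly spread. The stretch from Lor to Lce1m (chr3:91884197-92822982), which holds 37 members, had 121 BURs per Mb, and the stretch from Crnn to Tchhl1 (chr3:92948709-93275902) had 113. The 2 ends with S100A genes had 43.3 per Mb (S100a1 to S100a9, chr3:90314956-90499643) and 43.2 per Mb (beyond Tchhl1 to S100a10). Between S100a9 and Lor lies a stretch of 1.38 Mb with no member and 3 other protein-coding genes, and it held 138 BURs, or 99.7 per Mb.

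**Figure D1:**
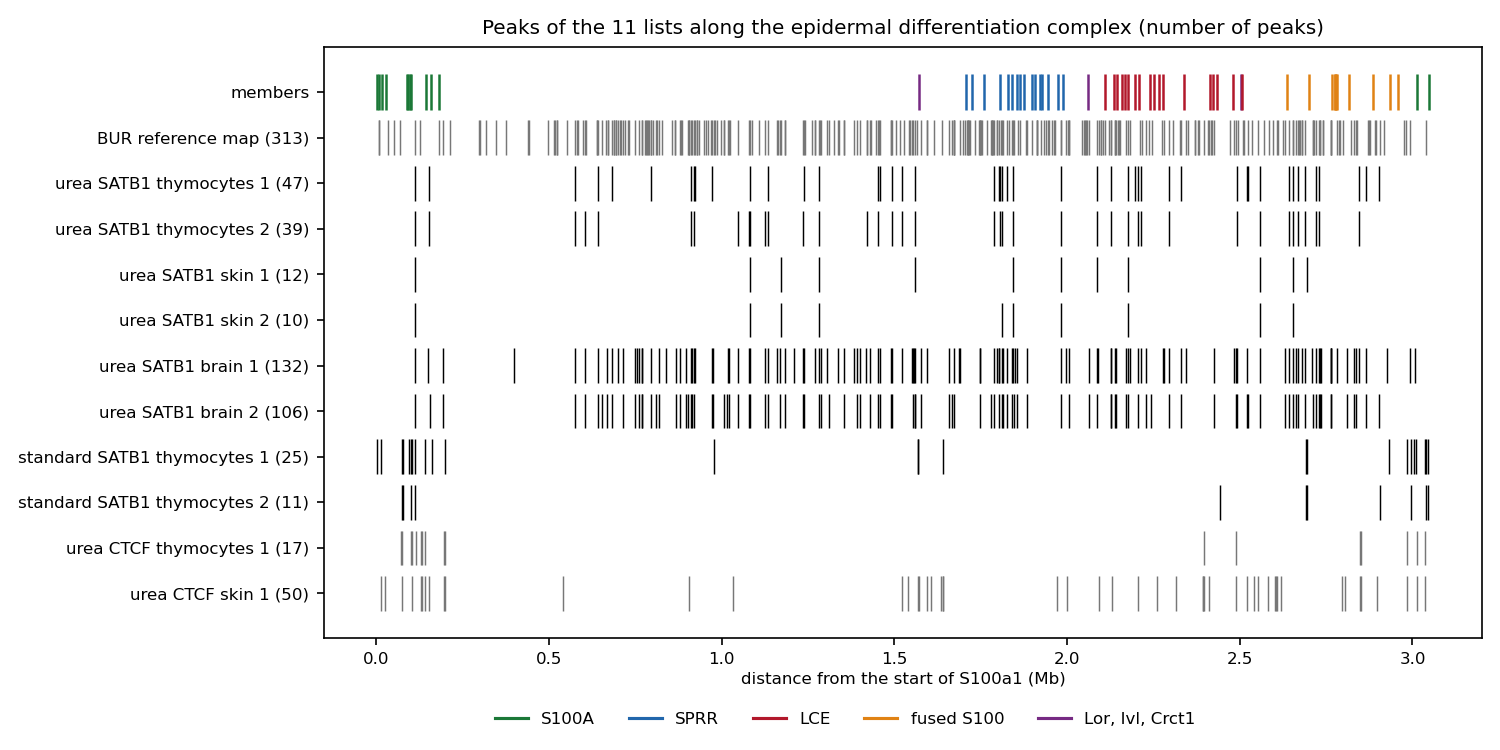
Position of each member (top row, coloured by family) and of each peak summit of the 11 lists, by distance in Mb from the start of S100a1; the number of peaks is in parentheses. Most urea SATB1 peaks lie in the BUR-rich middle, whereas the standard SATB1 peaks (25 and 11) and the thymocyte CTCF peaks (17) gather at the 2 ends with S100A genes. By relative density skin differed, with urea SATB1 at 1.26 and 1.3 from S100a1 to S100a9 against 0.992 and 1.03 from Lor to Lce1m.

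By gene, a window of the gene body plus 20 kb on either side held at least 1 BUR in 60 of 61 members (98.4%), against 86.6% of all protein-coding models. The exception was S100a8. S100A windows held 0 to 4 BURs with a median of 1, SPRR windows 4 to 15 with a median of 6, LCE windows 2 to 9 with a median of 4, and fused S100 windows 1 to 10 with a median of 6. The highest counts, 15 and 14, were at Sprr2a3 and Sprr2a2, whose annotated models are long. Because neighbours lie close together, 55 of the 61 windows share bases with another window, and the members are not independent of one another.

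Urea SATB1 peaks were found along the cluster in all 3 cell types at or somewhat below the density of each list as a whole. The cluster held 47 and 39 peaks in thymocytes, 12 and 10 in skin, and 132 and 106 in brain. Relative to the genome these are 0.877 and 0.843 in thymocytes, 0.915 and 0.789 in skin, and 0.938 and 0.814 in brain. In the core from Lor to Tchhl1 the 6 values ran from 0.91 to 1.17. The ranges of the 3 cell types overlap. An exact permutation test over the 6 lists gave p = 0.933 (two-sided, 90 arrangements, smallest possible p 0.0667), with means of 0.86 ± 0.0239 in thymocytes, 0.852 ± 0.089 in skin and 0.876 ± 0.0876 in brain (SD, n = 2). In pairs, brain exceeded skin by 0.0237, brain exceeded thymocytes by 0.016 and thymocytes exceeded skin by 0.00769, each with p = 1 after Benjamini-Hochberg adjustment over the 3 pairs (exact permutation test, two-sided). With 2 lists against 2 the smallest possible p is 0.333. The order of the cell types was not stable: with every list reduced to the 10846 peaks of highest −log10 q, the size of the smallest, the relative density was 0.697 and 0.697 in thymocytes, 0.867 and 0.789 in skin, and 0.464 and 0.309 in brain.

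The share of cluster BURs that carried a urea SATB1 peak followed the size of the lists. In thymocytes 30 and 28 of the 313 BURs were bound (9.58% and 8.95%), in skin 9 and 9 (2.88% in each), and in brain 100 and 84 (31.9% and 26.8%). The 3 cell types did not overlap, and the exact permutation test over the 6 lists gave p = 0.0667, the smallest it can give. Brain exceeded thymocytes by 20.1 percentage points and skin by 26.5, and thymocytes exceeded skin by 6.39, each at an adjusted p = 0.333, again the smallest possible (exact permutation test, two-sided). With lists of equal size all 3 differences changed sign: the bound share was then 2.24% and 2.88% in thymocytes, 2.88% and 2.88% in skin, and 1.92% and 1.28% in brain.

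**Figure D2:**
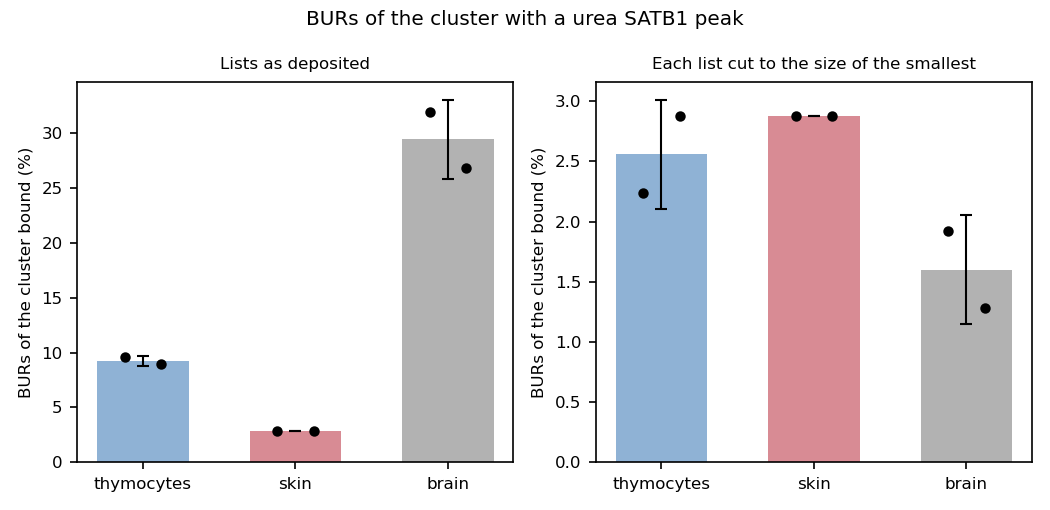
Percent of the 313 BURs of the cluster that share at least 1 bp with a urea SATB1 peak, as deposited (left) and with each list cut to the 10846 peaks of highest −log10 q (right); bars are means, points the 2 replicates and whiskers the SD. Brain is highest on the left, at 31.9% and 26.8%, and lowest on the right, at 1.92% and 1.28%.

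Counted in both replicates, 22 cluster BURs were bound in thymocytes (7.03% against 11.3% of all BURs), 8 in skin (2.56% against 3.12%) and 77 in brain (24.6% against 31.4%). In each cell type the share in the cluster lay below that of the genome. Of the 313 BURs, 206 held no urea SATB1 peak in any list (65.8% against 59.5% of all BURs). In both replicates, 56 were bound in brain alone (17.9% against 20.3%) and 15 in thymocytes and brain (4.79% against 8.18%). All 3 cell types bound 6 (1.92% against 2.86%). A further 28 were bound in 1 replicate at most of each cell type (8.95% against 8.77%), and 2 in another combination (0.639% against 0.47%). Binding went with the strength seen in vitro: the median fold enrichment in the BUR map was 4.99 for the 206 BURs without a peak, 7.26 for those bound in brain alone, 10.7 for thymocytes and brain, and 11.7 for the 6 bound in all 3. The same order held over all BURs of the genome, with medians of 5.29, 6.55, 8.21 and 10.2. The ranges overlapped widely, and single BURs without a peak reached 17.4. AT content differed little, with medians of 70.5%, 70.9%, 70.2% and 69.8% in the same order. Length rose with binding too, with median BUR lengths of 410, 518, 568 and 606 bp in that order. Over all BURs the median lengths were 416, 468, 491 and 514 bp. Binding was called at 1 bp of overlap, and the part of BUR length in these orders was not tested.

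Merging the 6 urea SATB1 lists gave 150 sites along the cluster, of which 108 overlapped a BUR and 142 lay between genes. By list, 63.8% to 90% of the cluster peaks overlapped a BUR, against 72.8% to 79.4% of the peaks of the whole lists. Of the 150 sites, 7 were present in all 6 lists and 48 in a single list. Of the sites present in both replicates of a cell type, thymocytes had 33, skin 9 and brain 91. Skin sites were mostly shared: 8 of the 9 were also in both thymocyte lists and 7 of the 9 in both brain lists. Such sharing was usual genome-wide, where 7241 BURs were bound in both skin lists and 6646 in both lists of all 3 cell types. In the cluster, 63 sites were in both replicates of brain alone.

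The strongest of them lay at the LCE1 genes, whose products stiffen the cornified envelope. At chr3:92491244-92491975, just upstream of the start of Lce1d (minus strand, chr3:92489421-92491132) and on a BUR with an in vitro fold enrichment of 15.6, SATB1 reached a fold enrichment of 33.2 and 32.6 in thymocytes, 25.1 and 23.1 in skin, and 24.5 and 24.5 in brain. Fold enrichment here is the peak height over the local background of the same library and was not scaled between libraries. In each of the 6 lists this was the highest value of the cluster, at rank 45 of 45049 and 77 of 38882 in thymocytes, 414 of 11210 and 622 of 10846 in skin, and 587 of 117963 and 650 of 109154 in brain. The near edge of the peak was 0.112 to 0.238 kb from the annotated start of Lce1d across the 6 lists. No standard SATB1 peak and no CTCF peak overlapped it.

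The next strongest skin site lay between Sprr1a and Sprr4, 2 small proline-rich genes. At chr3:92297099-92297774 the fold enrichment was 28.5 and 29.6 in thymocytes, 17.2 and 17.8 in skin, and 22.3 and 22.1 in brain, on a BUR of 12.8 in vitro. The third lay 0.839 kb beyond the 3′ end of Sprr2e at chr3:92158210-92158778. There the values were 12.9 and 14.1 in skin, 5.78 and 20.9 in thymocytes, and 6.06 in the first brain list with no peak in the second, so thymocyte replicates spread more widely than the cell types and an order cannot be given. The fourth, at chr3:90428737-90429258, 10.4 kb from S100a6, had 9.15 and 8.43 in skin, 15.0 and 19.3 in thymocytes and 15.8 and 15.2 in brain, although its BUR ranked 228 of 313 in vitro with a fold enrichment of 4.23. Skin values lay below both other cell types at the Sprr4 and S100a6 sites, and below thymocytes but overlapping brain at Lce1d.

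Of the remaining skin sites, 3 lay in the stretch between S100a9 and Lor, 486, 398 and 286 kb from Lor, 1 lay between Lce1m and Crnn and 1 was 15.5 kb from Crnn, which encodes cornulin. At the Crnn site (chr3:92968937-92969627) fold enrichment was 5.45 and 5.73 in skin, 14.3 and 16.1 in thymocytes and 20.7 and 19.4 in brain. The site 398 kb from Lor was the only one of the 9 without a thymocyte peak. It had 5.03 and 3.89 in skin and 6.52 in a single brain list, and is named here after its values were seen. A site present in thymocytes (22.7 and 22.1) and brain (21.4 and 19.5) at chr3:93034803-93035345, 10.1 kb beyond Flg2, had no peak in either skin list, although its BUR was the second strongest of the cluster in vitro, at 19.1.

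**Figure D3:**
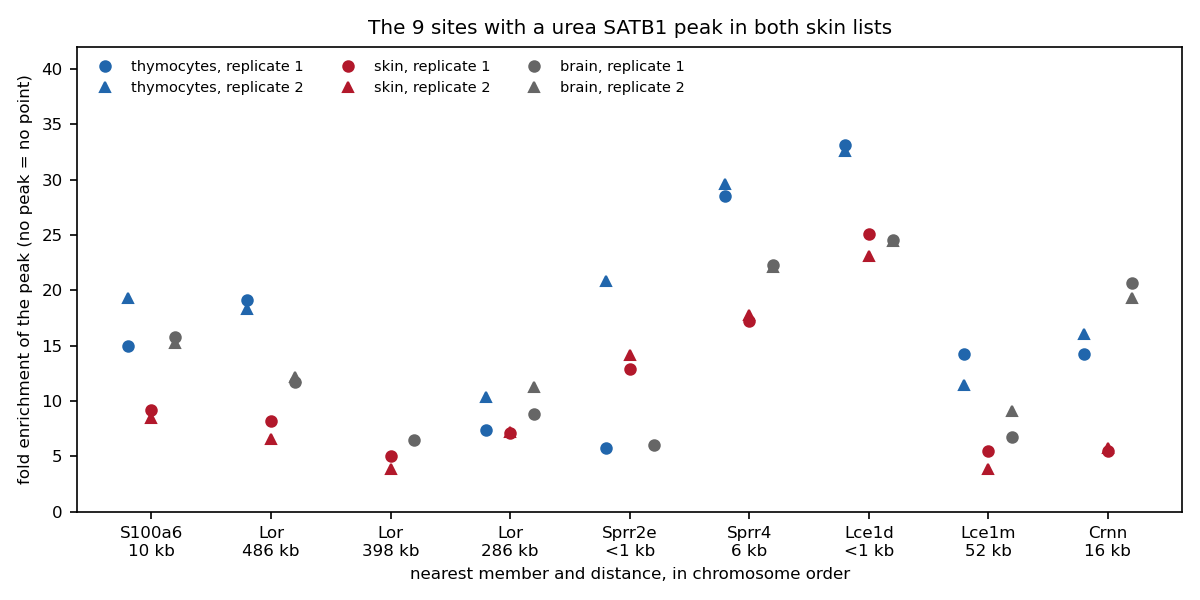
Fold enrichment of the peak in each urea SATB1 list (circle, replicate 1; triangle, replicate 2) at the 9 sites found in both skin lists, labelled by the nearest member and its distance. Values are highest at Lce1d, where skin reached 25.1 and 23.1, and the thymocyte replicates are farthest apart at Sprr2e, at 5.78 and 20.9.

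By gene, 28 members had a thymocyte urea SATB1 peak within 20 kb in both replicates, 45.9% against 40.4% of all protein-coding genes. In skin there were 14 (23% against 18.3%) and in brain 48 (78.7% against 58.3%). With the gene body alone the counts were 1, 0 and 4, against 20.6%, 9.55% and 31% of all genes. Member models are short, with a median of 1703 bp, and the SATB1 sites lie between them. Annotated starts were nearer to a urea SATB1 peak than is usual: the median distance over members was 24.6 and 26.7 kb in thymocytes, 55.3 and 63.2 kb in skin and 7.59 and 9.91 kb in brain, against 37.2 and 40.7, 115 and 120, and 17.9 and 19.3 kb over all genes. The direction against all genes depended on the window and on list size. With flanks of 10 kb thymocytes and skin fell on the other side, at 24.6% of members against 31.5% of all genes and 8.2% against 14.1%, while brain had 57.4% against 48.1%. With flanks of 50 kb the members were above in all 3 cell types, at 73.8% against 59.4%, 39.3% against 29.3% and 98.4% against 76.2%. At equal list size 11 members were counted in thymocytes (18% against 17%), 14 in skin (23% against 18.1%) and 7 in brain (11.5% against 13.7%), so that brain changed sides.

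The 14 members counted in skin fell into 5 neighbourhoods: S100a4, S100a5 and S100a6, then Sprr2d to Sprr2g, then Sprr1a and Sprr4, then Lce1a2, Lce1c, Lce1d and Lce1e, and Crnn. All 14 also had a peak in both thymocyte and both brain lists, a count not set against all genes. Within S100a4, S100a5 and S100a6 each of the 6 lists held exactly 1 peak, the shared site described for S100a6. Sprr2b (chr3:92120627-92122007) and Sprr2d (chr3:92143062-92144795) had the most thymocyte peaks of the SPRR family, with 5 and 3 at Sprr2b and 3 and 2 at Sprr2d. In brain they had 7 and 5, and 5 and 5. In skin Sprr2b had 0 and 1 and Sprr2d had 1 and 2. Among LCE genes the highest thymocyte counts were at Lce1e (4 and 3) and Lce1f (3 and 2). Lce1e had 1 and 1 in skin while Lce1f had none.

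Lor, Ivl and Flg were not among the members counted in skin, as was the case for most protein-coding genes, of which 18.3% were counted. At Lor (chr3:91884197-91887064) there was 1 peak within 20 kb in each thymocyte list, 1 and 0 in skin, and 5 and 4 in brain. The thymocyte peak lay 8.54 and 8.52 kb beyond its 3′ end, with fold enrichment of 16.4 and 10.9, and the single skin peak overlapped it at 5.45. At Ivl (chr3:92374834-92377637) neither thymocyte nor skin lists held a peak within 20 kb. Brain held 1 peak in each list, 1.55 and 1.57 kb upstream of the gene, with fold enrichment of 8.63 and 11.5. None of the 5 Flg models had a thymocyte or skin peak in its window, and each had 4 and 2 in brain. The first Flg model (chr3:93077463-93086275) held 2 intronic sites present in both brain lists, named after their values were seen. Fold enrichment was 3.94 and 5.30 at chr3:93078664-93079059 and 4.10 and 4.86 at chr3:93080146-93080583, and a further intronic peak of 5.11 was in the first brain list alone. Flg2, a filaggrin relative, had 3 and 3 in thymocytes, 1 and 0 in skin and 5 and 4 in brain. A site, named after its values were seen, overlapped an exon at its start (chr3:93004217-93004806), with fold enrichment of 8.38 and 7.54 in thymocytes and 16.1 and 15.1 in brain. Crct1 had 2 and 1 in thymocytes, none in skin and 4 and 3 in brain. S100a8 (chr3:90472993-90473956) had 1 peak in every thymocyte and brain list and none in skin, but not at a shared site. The thymocyte peaks formed a site that lay on no BUR, overlapped a skin CTCF peak and was in neither brain list. The brain peaks lay at different positions, each in a single list. They were 7.76 kb (first list, fold enrichment 3.83) and 1.98 kb (second list, 4.86) from the gene. S100a9 (chr3:90496554-90499643) had 1 and 1 in brain alone. A BUR of 13.4 in vitro inside S100a9 carried no urea SATB1 peak.

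**Figure D4:**
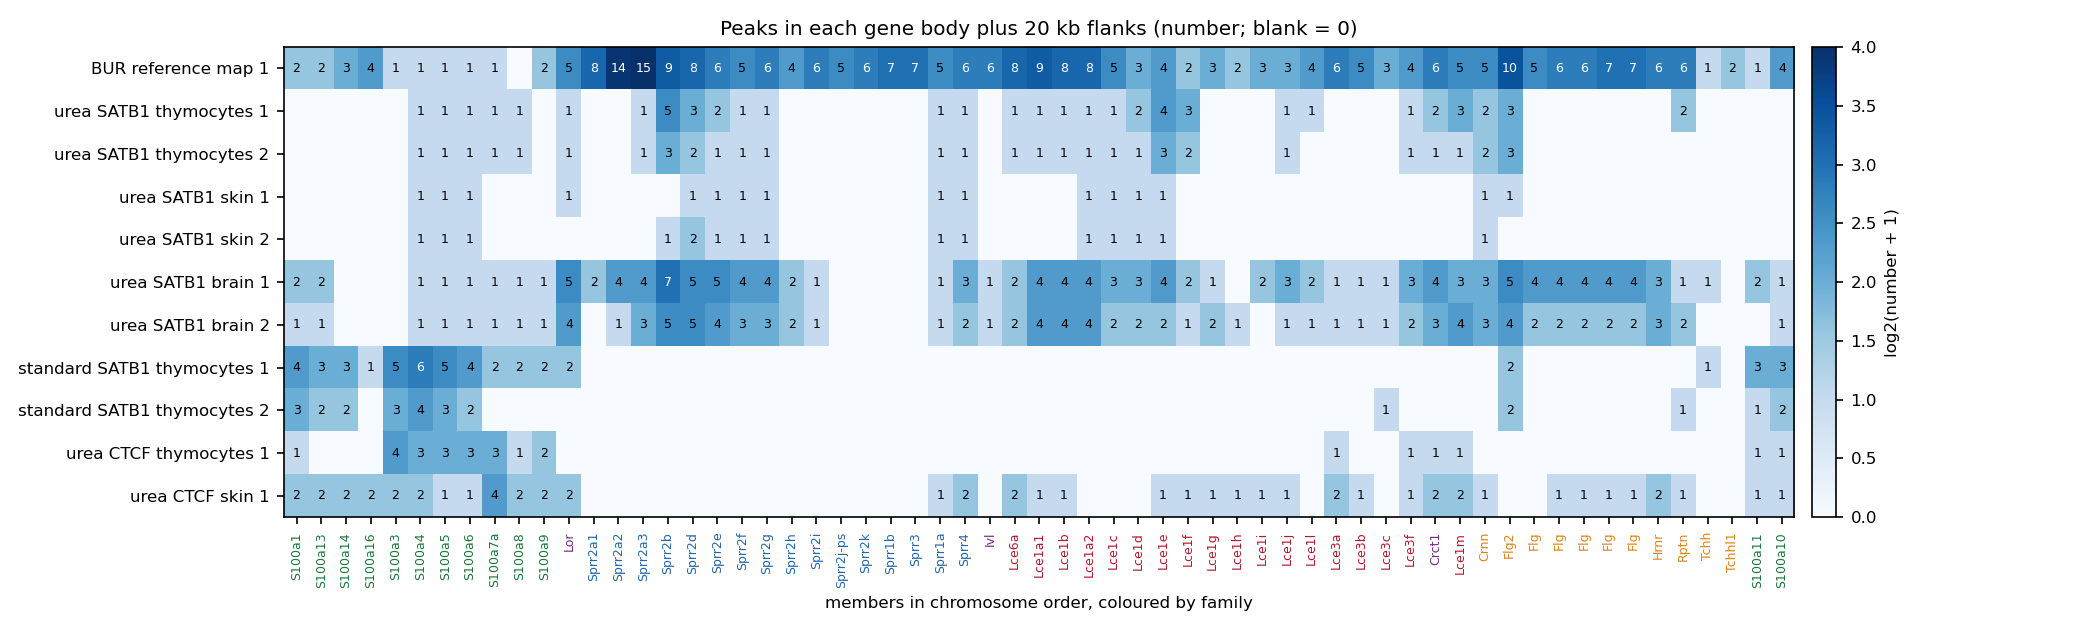
Number of peaks of each list in the gene body plus 20 kb flanks for all 61 members in chromosome order (blank, 0), with symbols coloured by family. The 14 members counted in both skin lists form 5 neighbourhoods. No urea SATB1 peak was found in any list for 8 members, a count not set against all genes.

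No urea SATB1 peak lay within 20 kb in any of the 6 lists for 8 members, and the share over all genes was not counted. The 8 were S100a3, S100a14, S100a16, Tchhl1, Sprr1b, Sprr3, Sprr2k and Sprr2j-ps. The last 4 sit together in the longest stretch between urea SATB1 sites from Lor to Tchhl1, which ran for 97.8 kb (chr3:92199265-92297098) over 6 members and 12 BURs. The unbound BUR shown with its sequence, at chr3:92247824-92248374 and 5.12 kb from Sprr1b, lies in it. Only 4 cluster BURs were stronger in vitro than its 17.4. Thymocyte lists alone left longer gaps, of 162 kb over Lce1l to Lce3f, 138 kb over Sprr2f to Sprr1a, and 115 kb over all Flg models and Hrnr. Within the last gap the brain lists held 9 and 7 peaks on a ground of 15 BURs. Reads were kept only where they matched the genome once, and the SPRR2, LCE1 and Flg copies resemble one another. The part of this in the gaps was not tested, and the BUR map listed BURs in each of them.

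Standard SATB1 ChIP-seq in thymocytes gave a different map of the same genes. The cluster held 25 and 11 standard peaks, a relative density of 0.438 and 0.343 against 0.877 and 0.843 for urea SATB1 in thymocytes. The groups did not overlap. The means differed by -0.469, standard minus urea, with p = 0.333 in an exact permutation test (two-sided, 2 lists against 2, the smallest p possible). Antibody, age and handling labels differ between the lists too. None of the standard peaks overlapped a BUR and none overlapped a thymocyte urea SATB1 peak. Such overlap was rare over the whole standard lists too. It was 3.78% and 5.2% with BURs, and 0.884% to 1.25% with the thymocyte urea SATB1 lists. At S100a1 to S100a9 the relative density was 2.9 and 2.06, at the S100a11 and S100a10 end 4.04 and 3.08, and from Lor to Lce1m 0.171 and 0.101. In both replicates 10 members had a standard peak within 20 kb (16.4% against 64% of all genes), and 9 of the 10 were S100A genes. Standard peaks covered the starts of S100a6 and S100a10 in both replicates, with fold enrichment of 7.13 and 5.42 at S100a6 and 10.0 and 4.51 at S100a10. No SPRR or LCE gene was counted.

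The tenth member was Flg2, with 2 standard peaks in each replicate. The first (chr3:93007905-93008200 in replicate 1) crossed the end of an exon, with fold enrichment of 10.3 and 7.53, and the second (chr3:93009081-93009376) lay in the intron that follows, with 8.48 and 7.89. The second overlapped the single skin urea SATB1 peak of Flg2, which had a fold enrichment of 3.6 and an AT content of 39.6%, lay on no BUR and was absent from the second skin list. It was the only urea SATB1 peak of the cluster that overlapped a standard peak. Over the whole lists such overlap was 7.78% and 9.34% of the first skin list but 0.895% and 0.73% of the first thymocyte list, in each case with the first and the second standard list. At Lor the first standard list had 2 peaks in the gene body, of 3.85 and 6.51, and the second had none within 871 kb.

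CTCF peaks were listed once per cell type, so no test was possible. In thymocytes the cluster held 17 CTCF peaks, a relative density of 0.704, and in skin 50, a relative density of 1.34. The difference lay in the middle of the cluster. Over S100a1 to S100a9 both lists held 8 peaks and over the S100a11 and S100a10 end both held 3, whereas from Lor to Lce1m there were 2 in thymocytes and 19 in skin, and between Lce1m and Crnn 0 and 8. Of the thymocyte peaks 14 of 17 (82.4%) had a skin peak, close to the 83.5% of that whole list, while 14 of the 50 skin peaks (28%) had a thymocyte peak against 53.5% of the whole skin list. Skin peaks of the cluster without a thymocyte peak were weaker, with a median fold enrichment of 5.56 against 8.16, as in the whole list (4.69 against 6.96). With the skin list cut to the 20323 peaks of the thymocyte list, an alternative added after the data were seen, 39 peaks stayed in the cluster and 19 of the 27 between Lor and Crnn, where thymocytes had 2.

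By gene, 14 members had a thymocyte CTCF peak within 20 kb (23% against 61.6% of all genes) and 37 a skin CTCF peak (60.7% against 72.2%). All 13 S100A genes were counted in skin and 10 in thymocytes. Of 18 LCE genes 3 were counted in thymocytes and 13 in skin, and of 11 fused S100 models 0 and 7, the latter being 4 of the 5 Flg models, Hrnr, Rptn and Crnn. SPRR genes had 0 in thymocytes and 2 in skin (Sprr1a and Sprr4). Lor had 2 skin CTCF peaks in its body, with fold enrichment of 3.61 and 3.35, where thymocytes had none within 825 kb. Skin CTCF and skin urea SATB1 peaks did not overlap anywhere in the cluster, 0 of 12 and 0 of 10, against 12.8% and 12.1% of the whole skin lists. With so few peaks, 9 of them shared by the 2 skin lists, these counts cannot set the cluster apart from the whole lists. The strongest skin CTCF peaks between Lor and Tchhl1 had fold enrichments of 11.1 near Rptn, 11.0 near Lce3f and 11.0 between Lor and Sprr2a1.

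**Figure D5:**
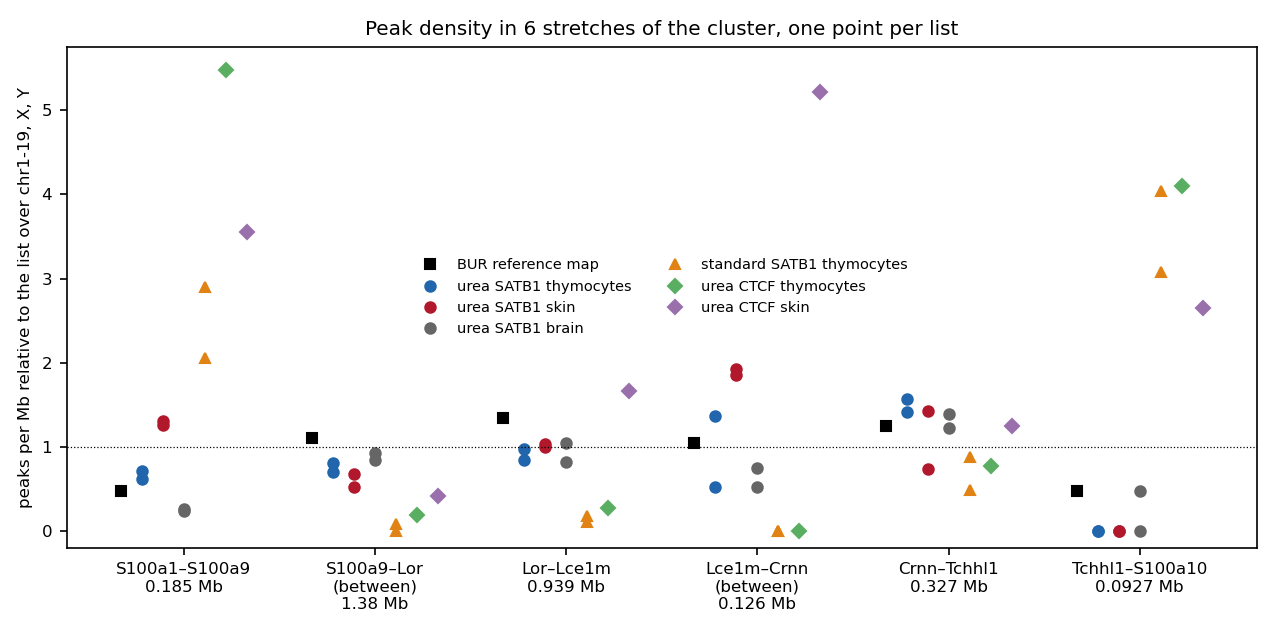
Peak density of each list in 6 consecutive stretches of the cluster, relative to the density of the same list over chromosomes 1-19, X and Y (dotted line at 1), one point per list. Standard SATB1 and thymocyte CTCF are above 1 at both S100A ends and below 1 elsewhere, BURs are below 1 at both ends (0.477 and 0.475), and skin CTCF reaches 5.22 between Lce1m and Crnn.

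Of 16 other genes listed for the locus, 6 were annotated within the cluster and outside the rule: Pglyrp4, Pglyrp3, Prr9, Lelp1, Smcp and Kprp. A urea SATB1 peak was within 20 kb in both replicates of 3 of the 6 in thymocytes (Pglyrp3, Smcp and Kprp), 0 in skin and 3 in brain. Standard SATB1 gave 0 in both replicates, thymocyte CTCF 1 and skin CTCF all 6.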

How the data were processed

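Peak lists of 11 samples were used. According to the labels and the study's methods, the authors mapped reads with Bowtie2 2.3.1 to mm9, kept unique matches and called peaks in each sample on its own with MACS2 2.2.7 at q 0.01. Each deposited list gives positions, a fold enrichment ratio over local background, −log10 p and −log10 q, and a display score that was not used here. The lists hold no read counts. The study describes aligned reads as similar among the urea libraries of the 3 cell types, but no depth per list was used here and no counting interval was given, and absence of a peak is not absence of binding.

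Starts were converted to 1-based coordinates. Peaks were counted in gene bodies plus 20 kb and along the cluster at 1 bp of overlap with Python 3.11.15, numpy 2.4.6, pandas 2.3.3 and scipy 1.17.1; figures were drawn with matplotlib 3.10.9. Genes and sequence came from GENCODE vM1 and NCBIM37, the build of the files. Density used the bases of chromosomes 1-19, X and Y other than N, 2559 Mb. Groups were compared by exact two-sided permutation over lists, with Benjamini-Hochberg adjustment over 3 pairs, and the functions were tested on simulated data. Replicate numbers follow the labels.

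Genes named were Lor, Ivl, Flg, S100a8 and S100a9, every member with a skin peak in both replicates and the 2 members of each family with most thymocyte peaks. Named sites were the 8 strongest in both skin lists, the 3 strongest in thymocytes and in brain, and those nearest Lor, Ivl and Flg. The members, gene lists and tests were chosen with earlier results of these data known. The alternatives tried were peaks with −log10 q no lower than 5, the core cluster from Lor to Tchhl1, lists of equal size, chromosome 3 as reference, other overlap rules and flanks, a replicate block, and each replicate left out. Samples without a peak list were not analysed here.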

Additional observations from a re-analysis of the deposited data

How the results depend on the processing

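The standard minus urea difference kept its direction under every alternative run for it, between -0.795 and -0.24. The bound-share differences kept theirs except at equal list size. The small differences in relative density changed sign under most. In the core cluster from Lor to Tchhl1 thymocytes minus skin became -0.0578, brain minus skin -0.112 and brain minus thymocytes -0.0546. Against chromosome 3 they became -0.0893, -0.12 and -0.0309, and with equal-size lists -0.131, -0.442 and -0.311. Leaving out 1 replicate moved them from -0.0553 to 0.0707, from -0.0393 to 0.0866 and from -0.046 to 0.0779. With equal-size lists the bound-share differences became -0.319, -1.28 and -0.958 percentage points, since that setting removes most brain and thymocyte peaks.

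Members counted in thymocytes, skin and brain were 15, 5 and 35 with flanks of 10 kb, 45, 24 and 60 with flanks of 50 kb, and 1, 0 and 4 in the gene body alone, and 11 and 7 in thymocytes and brain at equal size. Against the share of all genes, members changed from above to below in thymocytes and skin at 10 kb, in all 3 with the gene body alone, and in brain at equal size. In the core cluster the relative density was 1.29 for BURs, 0.364 for thymocyte CTCF and 1.88 for skin CTCF. Against chromosome 3 BUR density was 0.899. Of 102 alternatives, 71 left the direction or count in place, 13 moved the value and 18 reversed it. Counting the Flg models once, an alternative added after the data were seen, gave 28, 14 and 44 members.

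Same-numbered lists did not deviate together over the members (correlations of -0.372, -0.0309 and 0). Most member windows overlap and few hold a skin peak, so these values cannot show whether such lists share more than a number. With a replicate block the differences stay 0.00769, 0.0237 and 0.016 in density, 6.39, 26.5 and 20.1 in bound share and -0.469 for standard minus urea, with exact permutation p between 0.5 and 1, 0.5 being the smallest possible. Peak lists without read counts limit every count of 0 to sites strong enough to be called, and 2 lists a group cannot reach an exact permutation p of 0.05.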
